A study of Caenorhabditis elegans with 2 samples.

Results

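The genes described here are those named for proteins of the cytoplasmic ribosome of Caenorhabditis elegans, and the measurement is the signal of peaks of the tagged nuclear hormone receptor NHR-120 near their transcript starts. They were taken by symbol from the Ensembl annotation of the WBcel235 assembly, as protein-coding genes whose symbol begins with rpl-, rps- or rpa- and a number. Of 81 genes matched in that way, rpa-1, rpa-2 and rpa-4 were left out because RefSeq describes none of these 3 as a ribosomal protein. The remaining 78 genes, of 19973 protein-coding genes on the nuclear chromosomes, comprise 47 for the large subunit (rpl) and 31 for the small subunit (rps). RefSeq describes rpl-24.2 as a putative ribosome biogenesis protein and rpl-42 as a NAM-associated domain-containing protein, and both were kept because their symbols meet the rule. Without these 2 genes the count of thresholded peaks was 9 of 76, and the median signal was 43.3 as with them. RefSeq also describes rps-30 by a ubiquitin-like domain and rps-10 by a plectin/eS10 N-terminal domain, and both stayed among the 76. For each gene the peak with the highest signal and a summit within 1 kb of any of its transcript starts was used.

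The ribosome is built from ribosomal RNAs and a set of proteins that are needed in nearly equal amounts, so these genes are among the most highly transcribed in growing cells. The small subunit reads the messenger RNA, and the large subunit joins amino acids and passes the growing chain through an exit tunnel. Introns of ribosomal protein genes often hold genes for small nucleolar RNAs (snoRNAs), which guide the modification of ribosomal RNA. Many worm messenger RNAs are trans-spliced, so an annotated start can be a splice site downstream of where transcription begins. NHR-120 is a member of the nuclear hormone receptor family, which is large in nematodes.

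Chromatin immunoprecipitation with sequencing was done on 2 biological replicates of whole young adult worms (64 h), grown from a culture synchronised as bleached and starved L1 larvae. Both replicates are of strain OP415, which carries the fosmid transgene wgIs415, nhr-120::TY1 EGFP 3xFLAG with unc-119(+), in the unc-119(tm4063) background. The chromatin was sonicated, with a fragment range of 200 to 800 bp given in the labels, and precipitated with an antibody against GFP. The tagged receptor comes from a transgene in a single strain, the worms were used whole so that no tissue is resolved, and the control that the labels name was not analysed here. The ranked list made from both replicates together holds 115573 peaks, and the thresholded list holds 610 peaks. The 2 replicates' own ranked lists hold 60719 and 58785 peaks. No list gives read counts, so the depth behind each value is unknown, and signal values are in the authors' own units.

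Thresholded peaks lay in the intergenic DNA upstream of 6 of these genes, and the sequences of 4 are shown. These 4 include 3 of the 4 highest signals of the set. Some of them share the words marked below, but no word is in all 4, and rpl-35 and rps-23 share none. Each line below is the whole 264 bp peak on the strand of the gene, 5′ to 3′, read from the RefSeq genome of the same assembly (WBcel235, named ce11 by the authors), and none of these peaks overlaps an annotated exon. The peak upstream of rpl-35 is at chrIII:7854585-7854848 (plus strand). On the minus strand are the peaks of rpl-20 at chrIV:4749960-4750223, rpl-15 at chrIV:654801-655064 and rps-23 at chrIV:12391202-12391465. For contrast, rpl-28 at chrV:12728321-12728584 (minus strand) has a summit 341 bp upstream, a signal of 42.96 and no thresholded peak. Capitals mark the word CGAGTGT, the word GCGTGTT or the word AAGTGTA, each as written or as its reverse complement.
rpl-35: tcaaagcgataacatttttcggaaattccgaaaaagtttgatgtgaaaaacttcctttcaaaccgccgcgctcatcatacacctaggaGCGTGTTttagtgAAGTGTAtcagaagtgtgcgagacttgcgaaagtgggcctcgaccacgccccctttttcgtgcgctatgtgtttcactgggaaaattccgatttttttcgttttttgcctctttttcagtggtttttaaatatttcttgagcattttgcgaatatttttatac
rpl-20: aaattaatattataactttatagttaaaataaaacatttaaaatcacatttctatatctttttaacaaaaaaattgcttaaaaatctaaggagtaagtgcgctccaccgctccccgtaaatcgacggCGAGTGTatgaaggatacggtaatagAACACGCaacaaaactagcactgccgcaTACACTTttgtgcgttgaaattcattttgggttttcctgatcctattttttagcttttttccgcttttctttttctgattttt
rpl-15: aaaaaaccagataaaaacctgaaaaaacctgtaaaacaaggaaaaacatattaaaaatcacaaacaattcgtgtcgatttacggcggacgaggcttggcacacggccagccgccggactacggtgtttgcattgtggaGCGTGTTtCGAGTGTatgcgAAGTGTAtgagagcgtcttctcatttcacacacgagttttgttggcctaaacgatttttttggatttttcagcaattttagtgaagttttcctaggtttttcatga
rps-23: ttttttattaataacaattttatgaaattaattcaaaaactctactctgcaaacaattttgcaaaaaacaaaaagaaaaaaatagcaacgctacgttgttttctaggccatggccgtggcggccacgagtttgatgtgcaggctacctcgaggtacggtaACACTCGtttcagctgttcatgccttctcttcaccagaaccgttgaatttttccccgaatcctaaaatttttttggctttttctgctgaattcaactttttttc
rpl-28: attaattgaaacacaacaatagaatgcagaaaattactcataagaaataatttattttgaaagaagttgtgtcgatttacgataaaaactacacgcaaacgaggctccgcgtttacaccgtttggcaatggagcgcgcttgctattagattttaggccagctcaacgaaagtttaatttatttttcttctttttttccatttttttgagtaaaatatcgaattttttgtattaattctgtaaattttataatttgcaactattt

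These 3 words were found after the sequences were seen. They are the words of 7 bases that at least 4 of the 6 upstream thresholded peaks hold within 100 bp of the summit on either strand, among words held by under 10% of the other peaks. A count of at least 4 of the 6 and a low share elsewhere were thus set by the choice. The contrast between them is no support for the words. CGAGTGT was present at 4 of the 6, among them rpl-20, rpl-15 and rps-23, and in 1.30% of the 16048 strongest peaks of other protein-coding genes. GCGTGTT was present at 4 of the 6, among them rpl-35, rpl-20 and rpl-15, at rpl-27 and rpl-6 in addition, and in 1.43% of the other peaks. AAGTGTA was present at 4 of the 6, among them rpl-35, rpl-20 and rpl-15, and in 2.54% of the other peaks. At rpl-15 the 3 words followed each other within 27 bp, and at rpl-35 its 2 words lay within 20 bp. The words were more widely spaced at rpl-20, over 61 bp. The words do not overlap in any printed peak. rps-19, another gene of the 6, and rpl-28 hold none of them within the windows searched. Shared words of other lengths were not searched. The printed peaks of rpl-28 and rpl-15 both hold GTCGATTTACG, and that of rpl-20 holds its reverse complement. A match is a description of letters, and nothing was measured about what binds them.

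Within 100 bp of the strongest summit of the other 72 ribosomal protein genes, CGAGTGT and AAGTGTA were each at 0 and GCGTGTT at 2 (2.78%). The same words were then counted in the 500 bp before the starts of these 72 genes. CGAGTGT stood before 13 of these genes (18.1%), against 2.55% of other protein-coding genes. The 13 genes had a median peak signal of 43.6, against 42.1 in the 59 without the word, and these medians were close to each other. GCGTGTT stood before 3 of the 72 (4.17%), against 3.74% of other genes. AAGTGTA stood before 3 (4.17%), against 7.93% of other genes.

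In the ranked list, ribosomal protein genes as a set had NHR-120 peaks of higher signal than other protein-coding genes. Ranked peaks need not have passed the threshold, and 9 of the 78 genes had a thresholded peak. The highest −log10 q among the strongest peaks of the set was 1.03, at rpl-15, and at rpl-3 it was 0.744. A ranked summit in reach of a start (1 kb) was found at all 78, against 17714 of 19895 other protein-coding genes (89.0%). The median signal of the strongest peak was 43.3 at ribosomal protein genes (quartiles 35.3 and 57.2), against 34.4 at other genes (26.5 and 43.2). Of the 78, 61 (78.2%) lay above the median of the other genes. In the upper 10% of all protein-coding genes, above 52.7, lay 24 ribosomal protein genes (30.8%), against 9.91% of other genes. In the upper 1%, above 79.1, lay 8 (10.3%), against 0.954% of other genes. The number of ranked peaks in a gene's window from which the strongest was taken had a median of 3 in both sets. The 78 genes used 77 different peaks, because rpl-39 and rps-30 lie near the same peak. No test was made on these shares, since genes are not replicates of a condition.

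**Figure D1:**
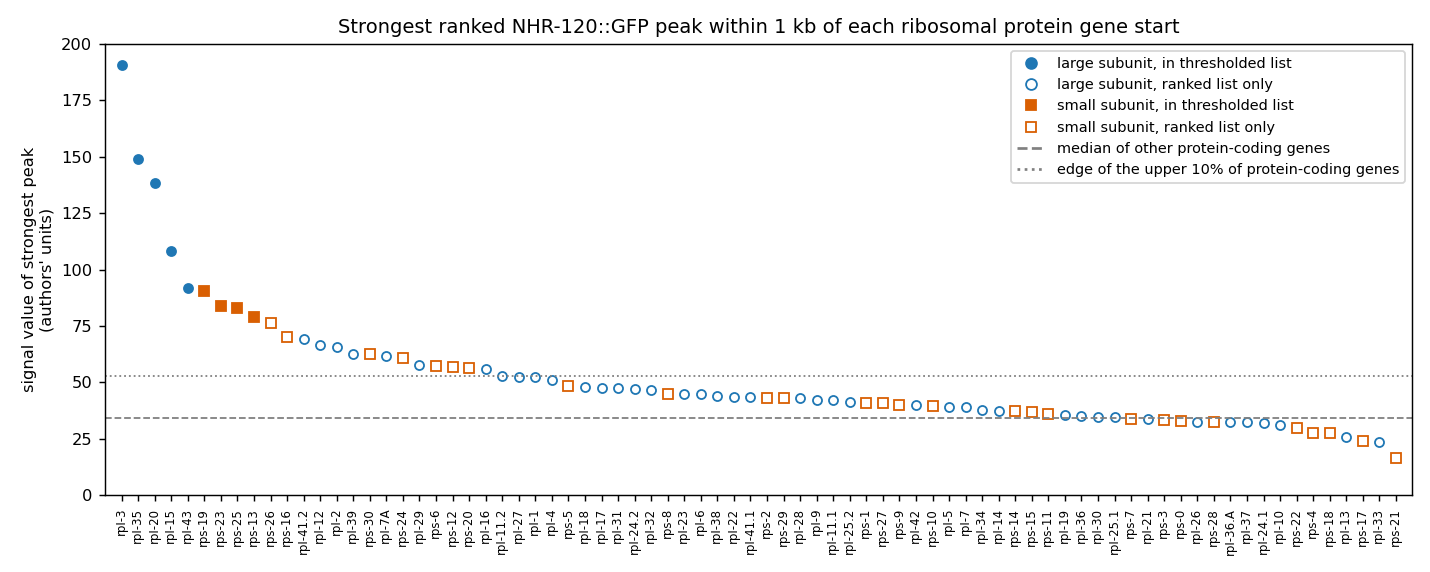
Signal of the strongest ranked peak (authors' units) within 1 kb of a transcript start for each of the 78 ribosomal protein genes, ordered from high to low, with circles for the large subunit, squares for the small subunit and filled symbols for genes with a thresholded peak. The signals span 190.6 at rpl-3 to 16.4 at rps-21, and most genes lie above the dashed line at 34.4, the median of other protein-coding genes.

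The spread within the set was wide, from 190.6 at rpl-3 to 16.4 at rps-21. The upper end was steep, since 4 large-subunit genes exceeded 100 while the middle 50% of the set lay between 35.3 and 57.2. Genes with a thresholded peak, meaning one that met a global irreproducible discovery rate (IDR) of 0.01, numbered 9 of 78 (11.5%, 95% Wilson interval 6.19% to 20.5%). The share among all protein-coding genes was 1.72%, and among genes outside the set it was 334 of 19895 (1.68%). In the authors' conservative list, where 1.55% of all protein-coding genes had a summit in reach, 11 of 78 did (14.1%, interval 8.06% to 23.5%), with rps-16 and rps-26 in addition to the 9. In each replicate's own thresholded list 3 of 78 had a summit in reach (3.85%), where all protein-coding genes gave 0.225% in replicate 1 and 0.24% in replicate 2. Of the 9 genes, 4 were left where a gene kept only peaks with no closer protein-coding start. The share of all protein-coding genes under that rule is not given here, so no comparison can be made for it. The intervals cover the counting error of genes only.

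Among large-subunit genes, rpl-3 was the highest. Its protein is the one that reaches closest to the peptidyl transferase centre, where amino acids are joined. The rpl-3 peak (WBGene00004414, F13B10.2) had a signal of 76.5 in replicate 1 and 117 in replicate 2, with summits 277 and 270 bp upstream. In the joint ranked list, with a signal of 190.6 and a summit 277 bp upstream, it ranked 31 of all peaks and 3 among protein-coding genes. Both replicates placed the summit within 7 bp of the joint one.

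The product of rpl-35 (WBGene00004449, ZK652.4) sits by the exit tunnel of the large subunit. Its peak had a signal of 88.2 in replicate 1 and 61.5 in replicate 2, and 148.9 in the joint list. The joint summit lay 417 bp upstream, the replicate 2 summit 78 bp away from it, and no start of another protein-coding gene lay within 1 kb. At rpl-20 (WBGene00004432, E04A4.8), a structural protein of the large subunit, the signals were 62.3 in replicate 1, 79.9 in replicate 2 and 138.3 jointly. The summits lay 313 and 285 bp upstream in the replicates, and the nearest start was that of a neighbour, Y17G9B.5, 148 bp from the joint summit. A thresholded peak in each replicate's own list as well was found at 3 genes, which were rpl-20, rpl-35 and rpl-3.

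Next in signal was rpl-15 (WBGene00004427, K11H12.2), another structural protein of the large subunit. Its signals were 47.5 in replicate 1, 61.6 in replicate 2 and 108.3 jointly, with all 3 summits between 352 and 357 bp upstream. At rpl-43 (WBGene00004456, Y48B6A.2) the peak was of a different kind. Its joint signal of 91.9 (45.9 in replicate 1 and 58.1 in replicate 2) had its summit 572 bp past the start, in an exon of xrn-2, a gene for a nuclear exoribonuclease whose own start was 98 bp away.

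Of small-subunit genes, 4 had a thresholded peak, and all 4 had lower signals than the 5 large-subunit genes with one. rps-19 (WBGene00004488, T05F1.3), whose human counterpart is mutated in Diamond-Blackfan anaemia, a failure of red cell production, had signals of 45.0 in replicate 1, 41.9 in replicate 2 and 90.4 jointly. Its summits lay 311, 316 and 307 bp upstream, and the joint summit was 138 bp from the start of hsr-9. rps-23 (WBGene00004492, F28D1.7), a protein of the decoding centre where codons are read, had signals of 35.0 in replicate 1, 47.4 in replicate 2 and 83.7 jointly, with the joint summit 281 bp upstream and 253 bp from the start of dpm-3.

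The other 2 had their summits past the start. rps-25 (WBGene00004494, K02B2.5), whose counterpart in yeast and mammals serves translation from internal ribosome entry sites, had signals of 44.0 in replicate 1, 32.5 in replicate 2 and 83.0 jointly. Its joint summit was 732 bp past the start, beyond the 3′ end of the gene, and 235 bp from the start of inx-7, which encodes a gap junction protein. rps-13 (WBGene00004482, C16A3.9), a protein that binds the ribosomal RNA of the small subunit, had signals of 31.2 in replicate 1, 53.3 in replicate 2 and 78.8 jointly. Its summit was 720 bp past the start, in an exon of rps-13 itself, and the snoRNA gene C16A3.11, which lies within rps-13, started 271 bp away.

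Next in signal, and not in the joint thresholded list, rps-26, which also has a human counterpart mutated in Diamond-Blackfan anaemia, had a signal of 76.5 with its summit 445 bp upstream. The start of a neighbour, tmem-107, was only 12 bp from that summit. The −log10 global IDR of the rps-26 peak was 1.72 where the threshold corresponds to 2. Nearer to the threshold were rps-16 with 1.87, rps-24 with 1.80 and rpl-2 with 1.73. The replicate signals of rps-26 were 38.3 and 35.2, with both summits within 13 bp of the joint one. rps-16 had a signal of 69.9 with its summit 247 bp past the start, and the 2 replicates placed their summits 241 and 8 bp past it. rpl-41.2 had 69.3 with its summit in an intron of zig-7, a neighbouring gene of the immunoglobulin superfamily. rpl-12, whose product forms the base of the stalk that recruits translation factors, had 66.7, and rpl-2, whose product binds near the peptidyl transferase centre, had 65.9. The peak shared by rps-30 and rpl-39 had a signal of 62.4, with its summit 339 bp past the start of rps-30, in an intron of that gene, and 838 bp upstream of rpl-39.

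The lowest 5 genes were rps-18 with 27.4, rpl-13 with 25.9, rps-17 with 24.0, rpl-33 with 23.8 and rps-21 with 16.4. All 5 were below the median of other genes. At each of them the summit lay past the start, between 118 bp at rps-18 and 902 bp at rps-17. The rps-21 peak had no counterpart within 1 kb of the start in replicate 2. The set thus ran from the upper 1% of protein-coding genes to rank 16850 of the 17792 with a summit.

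The strongest summits at ribosomal protein genes lay more often past the annotated start than upstream of it. The median position was 385 bp past the start, against 81 bp past it at other protein-coding genes. At 19 of the 78 genes (24.4%) the summit was upstream, against 44.4% of other genes. The size of this difference depended on the peaks used. With replicate 1 alone the median was 227 bp past the start, against 78 bp at other genes, and the upstream share was 38.2%, against 45.0%. A 500 bp window gave medians of 113 bp at ribosomal protein genes and 53 bp at other genes, with upstream shares of 37.7% and 43.1%. Taking the peak nearest to a start gave medians of 75 bp and 30 bp, with upstream shares of 35.9% and 44.2%. In the main assignment, within 250 bp of the start on either side lay 15 (19.2%), against 28.3% of other genes. The bin from 250 to under 500 bp past the start held 23.1% of ribosomal protein genes, against 13.7% of other genes. The wider bin 500 to 1000 bp past it held 38.5%, against 25.6%. The equally wide bin from 501 to 1000 bp upstream held 6.41% of ribosomal protein genes, against 22.0% of other genes. Ribosomal protein genes are short, with a median span of 754 bp against 2033 bp for other genes, and at 18 of them the summit was beyond the 3′ end. The share of other genes with a summit beyond the 3′ end is not given here. Whether span accounts for the position was not tested.

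Within the set the signal varied with position. The 10 genes with a summit 200 to 450 bp upstream had a median signal of 87.0 (41.1 to 190.6), and 6 of them had a thresholded peak. The 59 genes with a summit at or past the start had a median of 41.4 (16.4 to 91.9), and 3 of them had one. The 4 genes with a summit less than 200 bp upstream and the 5 with one more than 450 bp upstream had medians of 50.1 and 43.2 and no thresholded peak. The range of 200 to 450 bp was set after the positions were seen. In bins fixed by width, a thresholded summit 251 to 500 bp upstream was found at 7.69% of ribosomal protein genes, against 0.281% of other genes. In the bin 500 to 1000 bp past the start the shares were 3.85% and 0.377%, and no other bin held a thresholded summit for the set. Other genes with their strongest summit 251 to 500 bp upstream had a median signal of 34.5, which is near the 34.4 of all other genes.

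**Figure D2:**
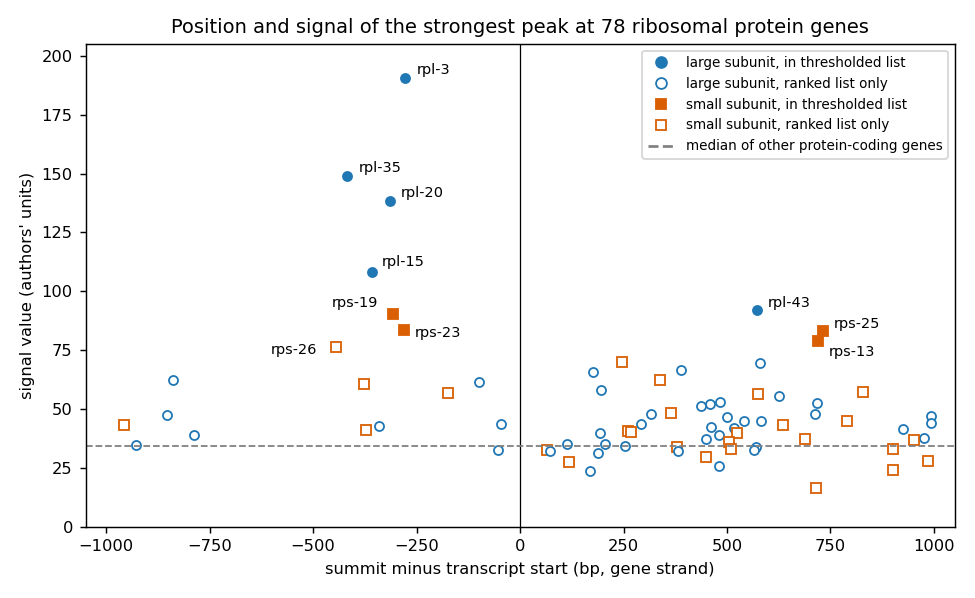
Signal of the strongest peak (authors' units) against the position of its summit relative to the transcript start, in bp on the gene's strand, for the 78 ribosomal protein genes, with filled symbols for thresholded peaks. The highest points stand in a narrow column 277 to 417 bp upstream, while the larger number of points past the start mostly lie between 25 and 60.

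**Figure D3:**
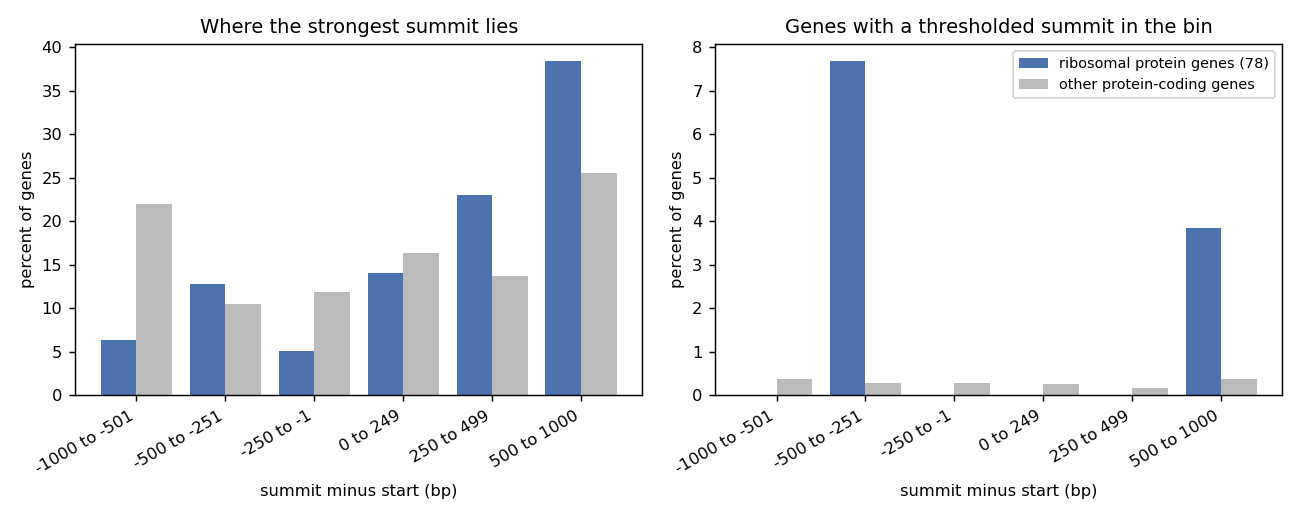
Left, percent of genes with a ranked summit whose strongest summit falls in each distance bin; right, percent of genes with a thresholded summit in the bin, with ribosomal protein genes left of other protein-coding genes in each pair. The right panel has bars for ribosomal protein genes in 2 bins, 7.69% at 251 to 500 bp upstream and 3.85% at 500 to 1000 bp past the start.

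By annotation, 23 summits lay between genes, with a median signal of 57.9 and 7 thresholded peaks. In exons lay 43, with a median of 40.2 and 2 thresholded peaks, and in introns 12, with a median of 42.0 and none. Of the summits within genes, 34 were in an exon and 7 in an intron of the ribosomal protein gene itself, and 14 were in another gene only. For 49 of the 78 genes the nearest protein-coding start was their own, with a median signal of 41.4. For the other 29 the nearest start was that of a neighbour, with a median of 47.7. None of these classes was set against other protein-coding genes, so the counts describe the set only. Of the 9 genes with a thresholded peak, 5 had a neighbour's start nearer to the summit, and to which of the genes such a peak belongs cannot be told apart.

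Large-subunit and small-subunit genes differed little in these measures. The median signal was 44.1 for large-subunit genes (23.8 to 190.6) and 41.1 for small-subunit genes (16.4 to 90.4), a difference of 3.00 for large minus small. That difference changed sign to -1.96 with a 2 kb window and to -1.10 where a gene kept only those peaks that had no closer protein-coding start. Above the median of other genes lay 39 of 47 large-subunit genes (83.0%) and 22 of 31 small-subunit genes (71.0%). Thresholded peaks were found at 5 of 47 (10.6%, interval 4.63% to 22.6%) and 4 of 31 (12.9%, interval 5.13% to 28.9%). These intervals cover the counting error of genes only, so their overlap is no test of the subunits. The 4 highest signals, all over 100, belonged to large-subunit genes. Summits lay a median of 382 bp past the start at large-subunit genes and 449 bp past it at small-subunit genes.

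A snoRNA gene started within 1 kb of the strongest summit at 13 of the 78 genes (16.7%, interval 10.01% to 26.5%), against 156 of 17714 other protein-coding genes (0.881%). The 13 had a median signal of 61.5, and the 65 others of the set had 42.3. Among genes outside the set the medians were 44.4 with a snoRNA start near and 34.3 without. A thresholded peak was present at 3 of the 13 (23.1%), which were rpl-15, rps-23 and rps-13, and at 6 of the 65 (9.23%). Outside the set these shares were 16.7% and 1.75%. Medians were higher where a snoRNA start was near, both in the set and outside it, and 6 of the 9 thresholded peaks of the set, those of rpl-3, rpl-35, rpl-20, rpl-43, rps-19 and rps-25, had no snoRNA start within 1 kb.

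The distances of these snoRNA genes varied. The summit nearest to one was at rpl-6, which encodes a structural protein of the large subunit and holds 3 snoRNA genes, with R151.12 starting 11 bp from the summit, and its signal was only 44.8. At rps-26 the snoRNA F39B2.14, which is not inside the gene, started 73 bp from the summit. At rpl-2 the distance was 144 bp, at rps-12 it was 253 bp and at rpl-7A it was 381 bp, with signals of 65.9, 56.8 and 61.5. At rpl-4, whose product lines the exit tunnel, the distance was 253 bp with a signal of 51.2. At rpl-12 it was 415 bp, with a signal of 66.7. The thresholded rpl-15 and rps-23 peaks were the farthest, at 572 and 679 bp. rpl-26 with 32.5, rpl-24.1 with 32.1 and rps-4 with 27.8 had a snoRNA start between 233 and 381 bp away and lay below the median of other genes. In all, 13 genes of the set hold a snoRNA gene within their span, with a median signal of 51.2 and 3 thresholded peaks. At rps-29 and rpl-7 the snoRNA gene was more than 1 kb from the strongest summit. The share of other genes that hold a snoRNA gene is not given here.

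**Figure D4:**
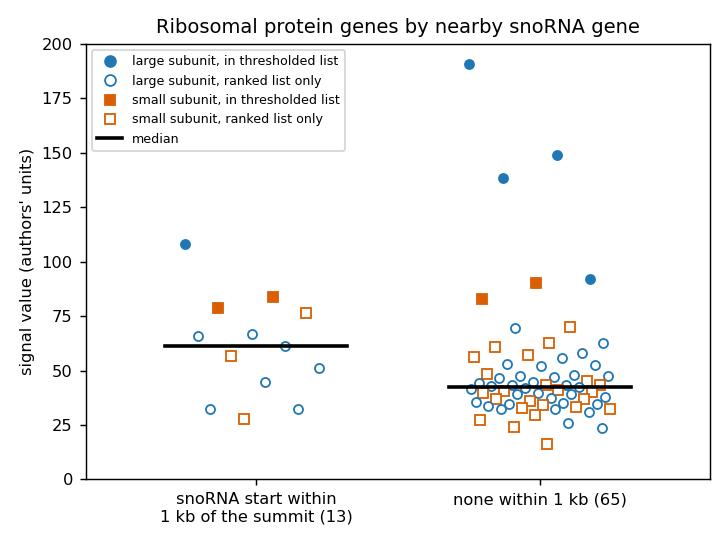
Signal of the strongest peak (authors' units) at ribosomal protein genes with a snoRNA start within 1 kb of the summit (13, left) and without (65, right), with bars at the medians of 61.5 and 42.3. The groups overlap over most of their range, and the 3 highest genes are in the group without a snoRNA start.

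Each replicate's own ranked list gave the same direction. In replicate 1, 76 ribosomal protein genes had a summit in reach, with a median signal of 21.7 against 20.3 for other protein-coding genes, and 60.5% lay above the other genes' median. In replicate 2, 74 had one, with a median of 26.8 against 21.0, and 70.3% lay above. Upstream summits made up 38.2% in replicate 1 and 25.7% in replicate 2. In both replicates 72 genes had a summit, and across these genes the Spearman correlation of signal was 0.532, against 0.260 across 11662 other genes. These correlations are across genes of the same 2 libraries, and genes are not independent replicates. Summits of the 2 replicates lay within 250 bp of each other at 41 of the 72 genes (56.9%), against 42.6% of other genes.

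The agreement differed within the set. At the 9 genes with a thresholded peak all 9 pairs of summits lay within 250 bp, with a median gap of 28 bp. The joint lists were made from these same replicates, and the IDR threshold keeps peaks that both reproduce. Close agreement at these 9 genes was therefore favoured by the selection and is no separate support. At the other 63 genes 32 pairs did (50.8%), with a Spearman correlation of 0.340. At rpl-16, for example, the summits in the replicates lay 999 and 394 bp upstream while the joint one lay 626 bp past the start. Values of single genes below the leading group therefore rest on summits that the replicates often placed differently.

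**Figure D5:**
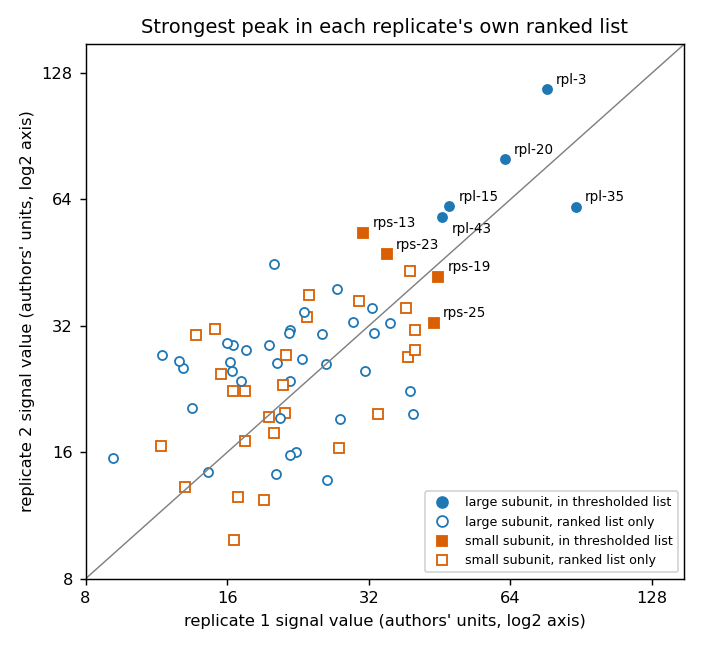
Signal of the strongest peak within 1 kb of the start in replicate 2 against replicate 1 (authors' units, both axes log2) for the 72 ribosomal protein genes with a summit in both, with the line of equal values. The 9 filled points, genes with a thresholded peak in the joint list, are high in both replicates, from 31.2 to 88.2 in replicate 1 and from 32.5 to 117 in replicate 2. The threshold itself selects for peaks that both replicates reproduce.

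Several known words were also counted within 100 bp of the strongest summit on either strand. AGGTCA, the core word of many nuclear receptor sites, was present at 9 of the 78 genes (11.5%), against 5.68% of the peaks of other genes. Among its 9 genes were rps-6, whose product is phosphorylated by S6 kinase, rps-20 and rpl-22, and none of the 10 genes with a summit 200 to 450 bp upstream. None of the 9 had a thresholded peak, and at all but rps-6 the summit lay in an exon of the gene itself. The peaks of other genes were not matched for place in exons or for base composition. GTTCGANNC, the B box of genes read by RNA polymerase III, was at 0 of the 78 peaks, against 2.33% of other peaks. GAGAGAG was at 1 (1.28%), at rpl-27, against 3.54%. TATAAA was at 9 (11.5%), against 15.4%, and TTTTTTTT at 6 (7.69%), against 12.8%. The absence of a word says only that these letters are not in the window.

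Base composition changed sharply across the leading upstream peaks. Within 50 bp of the summit the 6 thresholded upstream peaks had a median GC content of 55.0% (49.5% to 59.4%), and at 100 to 150 bp from the summit it was 21% (18% to 33%). The same medians for the peaks of other genes were 41.6% and 38%. Those peaks were taken at any position within 1 kb of a start, exons included, while the 6 all lay upstream and between genes. Whether the change is particular to these 6 thus cannot be told from these values. All 78 ribosomal protein peaks had a median of 46.5% within 50 bp. Exact repeats of 30 bases were rare, and shorter or diverged repeats were not searched. In the genome at least 10% of the 30-base words were repeated for 4 of the 78 peaks (5.13%), against 11.9% of other peaks. These were the peaks of rpl-37, rps-24, rpl-2 and rpl-7A, and among the thresholded peaks of the set the highest share was 2.55%, at rps-13. The part of base composition and of repeats in the signals was not tested.

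The 70 genes of mitochondrial ribosomal proteins (mrpl and mrps), which build the separate ribosome of that organelle, had a median signal near that of other protein-coding genes. Of these 65 had a ranked summit, with a median signal of 33.0, against 43.3 for the cytoplasmic set and 34.4 for other protein-coding genes, and 43.1% lay above the other genes' median. A thresholded peak was present at 3 of the 70 (4.29%, interval 1.47% to 11.9%), which were mrpl-23, mrpl-35 and mrps-26, against 1.68% of protein-coding genes outside the cytoplasmic set. The difference between the 2 ribosomal sets was not tested.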

How the data were processed

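Chromatin immunoprecipitation peaks of 2 biological replicates were analysed from the authors' deposited lists. Some lists were made from both replicates and some from 1 replicate, on assembly ce11, per the file descriptions. Aligner and peak caller: not given in the sources used here. Columns of the lists deposited by the authors are a score of at most 1000, a signal value of unstated scale, a −log10 q value and, in ranked lists, the −log10 of the global IDR. The scores were not used in results. Without read counts the depth per sample is unknown, and the precision of a signal cannot be stated.

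Genes and starts came from Ensembl release 115 (WBcel235), with missing symbols from RefSeq. Each gene took the ranked peak of highest signal with a summit within 1 kb of any transcript start, and distances refer to the start nearest to that summit. Shares have 95% Wilson intervals. For repeats, every run of 30 bases in a peak was looked up in the genome on either strand. The named genes are those with a thresholded peak, the 15 highest, the 5 lowest and those with a snoRNA start within 1 kb, and others named were chosen after their values were seen. Members and lists were chosen with earlier results of these data known, and no test was made. Alternatives were other windows, another peak per gene, another ranked list and each replicate alone, and 3 chosen after seeing the data. The peak assignment was tested on simulated data. The sequence of 1 further peak is not reported here. Python 3.11.15, numpy 2.4.6, pandas 2.3.3, scipy 1.17.1 and matplotlib 3.10.9 were used.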

Additional observations from a re-analysis of the deposited data

How the results depend on the processing

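Of 83 values recomputed under alternatives, 56 stayed within 1.5 times for a count, within the Wilson interval for a share or within the spread between replicates for a median. Another 25 moved further and 2 changed sign. The 9 genes with a thresholded peak became 4 when a gene kept only peaks with no closer protein-coding start (nearest start only, from here on). They became 3 with either replicate left out. The share of all protein-coding genes was then 0.225% in replicate 1 and 0.24% in replicate 2, against 1.72% in the joint list. The median signal of 43.3 became 47.8 with a 2 kb window, 39.5 with the nearest start only and 30.3 with the peak nearest to a start. Medians of other genes under these choices are not given here. With a replicate left out it became 21.7 in replicate 1 and 26.8 in replicate 2. The median of other genes was then 20.3 and 21.0, against 34.4 in the joint list. The median summit position of 385 bp past the start became 113 bp with a 500 bp window, 461 bp with 2 kb, 258 bp with the nearest start only, 75 bp with the peak nearest to a start and 227 to 303 bp with a replicate left out. The upstream share of 24.4% became 37.7% with a 500 bp window, 35.9% with the peak nearest to a start and 25.7% to 38.2% with a replicate left out. Large minus small signal, 3.00, became 0.529 with 500 bp, -1.96 with 2 kb, -1.10 with the nearest start only, 3.68 with the peak nearest to a start, 3.86 with ribosomal protein genes of other symbols, and 0.475 to 1.09 with a replicate left out. The share above the median of other genes, 78.2%, became 66.7% with the nearest start only, 60.3% with the peak nearest to a start and 60.5% to 70.3% with a replicate left out. The cause was not tested, except that windows and single-replicate lists hold other peaks by construction. The count of 13 genes with a snoRNA start near stayed within 1.5 times under every alternative run. No paired analysis was possible because there is 1 group.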

Other observations

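RefSeq names 10 further protein-coding genes as proteins of the cytoplasmic ribosome under other symbols. T07A9.14, a copy of the gene for the protein of rps-24, had a signal of 76.9 with its summit 846 bp past the start and a thresholded peak. rla-1 and Y37E3.8 share a peak of 72.03, and rla-0 had 59.6, where rla-0 and rla-1 encode proteins of the stalk that recruits translation factors. C37A2.7 had 59.0, rack-1 36.9, W01D2.1 36.8, rla-2 33.4 and ubl-1 17.7, and T26G10.3 had no ranked summit in reach. With these genes, 10 of 88 had a thresholded peak.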
